A study of Caenorhabditis elegans with 4 samples.

Results

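The narrow one-to-one RNA polymerase II peaks of the early Caenorhabditis elegans embryo are short stretches of chromatin that were each called as 1 peak in each of 2 precipitated libraries and as 1 peak in a list made for the whole series. They were chosen by width and overlap: a replicate 1 peak on chromosomes I to V or X of 1500 bp or less, overlapping exactly 1 replicate 2 peak, itself 1500 bp or less, and exactly 1 series-wide peak. There were 296 of them among the 4343 nuclear peaks of replicate 1, or 6.82%. The widths and the numbers of overlaps chose them and are given only as a description. The same peak coordinates that chose them also set how far their edges can differ, so values on edges are partly fixed by the choice.

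The material was embryos of N2, the wild-type Bristol strain, at the early embryo stage, from a population of males and hermaphrodites kept at 20 °C. Embryos were obtained by bleaching gravid adults and were crosslinked for 30 minutes in 1.85% formaldehyde. The ChIP group held 2 samples (replicates 1 and 2), precipitated with the mouse monoclonal antibody 8WG16, and the input group held 2 samples of DNA taken before precipitation. Both groups shared strain, stage and genotype. Whether the 2 replicates are separate embryo collections is not stated in the labels, and the preparations are whole embryos, so cell types and ages within the early stage are mixed. The input samples entered none of the values here, and the number of reads behind each list is unknown. With 2 samples of 1 group there was no comparison across samples, and no test was run: differences between sets of peaks are given side by side, with exact 95% binomial (Clopper-Pearson) intervals that cover counting error only.

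RNA polymerase II transcribes the protein-coding genes. Its largest subunit carries a long C-terminal tail of repeated residues, which is largely unphosphorylated while the enzyme assembles at a promoter and is phosphorylated as it starts and travels along the gene. 8WG16 recognises mainly the unphosphorylated tail, and its signal is therefore commonly strongest near transcription starts. In this worm many genes sit close together, some of them in operons read from a shared promoter, so that signals of neighbouring genes can run into a single wide peak. A short, isolated peak is the simplest form that a polymerase signal takes in such data. Coordinates follow WormBase WS220, the build named in the file headers. Genes and base sequences are not given here, since no genome or annotation of that build was used.

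Narrow peaks were a minority in both replicate lists, and most narrow peaks of replicate 1 were not narrow in replicate 2. Peaks of 1500 bp or less numbered 1283 in replicate 1 (29.5% of its list) and 1733 in replicate 2 (31%), and 296 of the 1283 (23.1%, interval 20.8 to 25.5%) met the whole rule. For 681 of them (53.1%) the replicate 2 peak was wider than 1500 bp, with a median width of 2891 bp (interquartile range 1931 to 5940 bp). In 292 of these 681 cases (42.9%) that wider peak overlapped 2 or more separate replicate 1 peaks, and in 56 it was wider than 10 kb. A further 227 (17.7%) met no replicate 2 peak, 66 (5.14%) met 2 or more series-wide peaks, 12 met 2 or more replicate 2 peaks and 1 met no series-wide peak. Of the 681, 504 (74%) lay wholly inside the wider replicate 2 peak, and the others hung over an edge of it. A narrow replicate 1 peak thus more often met a wider replicate 2 peak than a narrow partner that fulfilled the rule.

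The matching was nearly, but not wholly, one to one in all directions. No replicate 2 or series-wide peak was shared by 2 members. Of the 296 replicate 2 partners, 4 also touched a second replicate 1 peak and 8 touched 2 or more series-wide peaks. The series-wide partner touched no second replicate 1 peak and no second replicate 2 peak in any of the 296. In 294 of 296 the replicate 2 partner overlapped the same series-wide peak as the replicate 1 peak did.

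The word narrow refers to widths in the replicate lists, which the rule limits. The replicate 1 peaks of the set had a median width of 1175 bp (interquartile range 1092 to 1281.2 bp, lowest 768 bp), against 2186 bp for all replicate 1 peaks, and the shortest peak of that list was 727 bp. Their replicate 2 partners had a median width of 1289 bp (1186.8 to 1386.5 bp, lowest 839 bp), and the shortest peak of that list was 778 bp. The peaks therefore lay in the lower part of the width range that each list holds. Their series-wide partners had a median width of 600 bp (496.5 to 712.2 bp), which is more than the median of 363 bp over all nuclear peaks of that list. Compared with series-wide partners of other replicate 1 peaks they were narrower. The median was 732 bp for other narrow replicate 1 peaks (n = 599). It was 1731 bp for the 681 replicate 1 peaks wider than 1500 bp with 1 partner in each list. Over all replicate 1 peaks with 1 series-wide partner (n = 1640) it was 877.5 bp. Widths were related across the 296 peaks, as a description of intervals from overlapping data that share a width limit: Spearman's rho was 0.3 between the replicates, 0.43 between replicate 1 and the series-wide list, and 0.54 between replicate 2 and the series-wide list. Across the 681 wider peaks with 1 partner in each list, the first 2 of these values were 0.53 and 0.79.

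The shortest of the set lay on chromosome I at 1251317 to 1252084 in replicate 1, where it was 768 bp wide. The replicate 2 peak spanned 1251278 to 1252116 (839 bp) and the series-wide peak 1251411 to 1251841. It was the only one of the 296 that was 1000 bp or less in both replicates, and it was singled out for this after its values were seen.

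Narrow one-to-one peaks were densest on chromosomes I and IV and sparsest on V and X. Chromosome I held 68 of them (4.51 per Mb), IV 67 (3.83), II 49 (3.21), III 42 (3.05), V 38 (1.82) and X 32 (1.81). For all replicate 1 peaks the order was another one. Chromosome I had 61.4 per Mb, III 59.9, II 49.0, IV 42.0, V 29.1 and X 28.2. Chromosome IV thus stood above II and III for narrow one-to-one peaks and below both for all peaks.

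**Figure D1:**
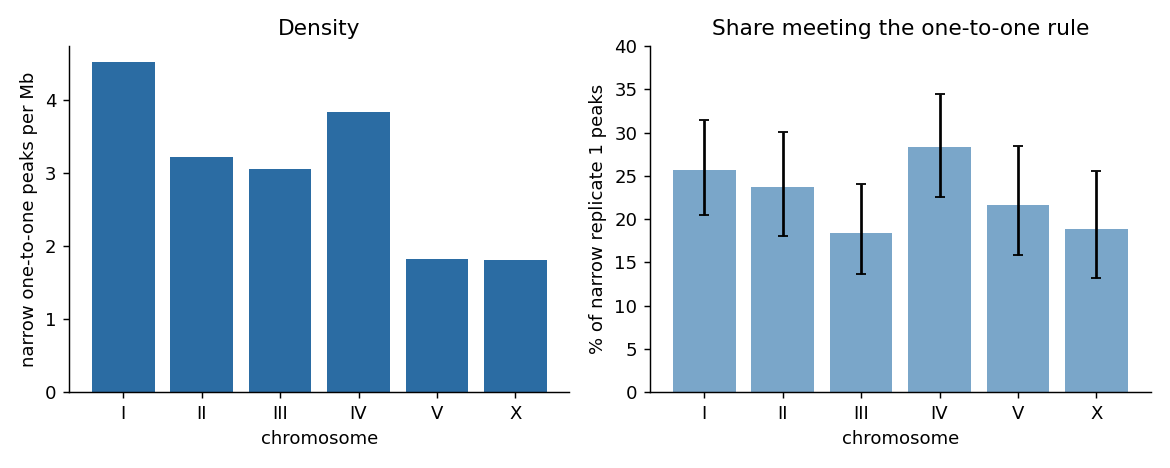
Narrow one-to-one peaks by chromosome, as peaks per Mb (left) and as a percentage of the narrow replicate 1 peaks of the chromosome (right, bars with exact 95% binomial intervals). The density runs from 1.81 per Mb on X to 4.51 on I, while the intervals of the shares overlap one another.

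As a share of the narrow replicate 1 peaks of their chromosome, they ran from 18.4% on III (42 of 228, interval 13.6 to 24.1%) to 28.3% on IV (67 of 237, 22.6 to 34.5%). Chromosome I had 25.7%, II 23.7%, V 21.6% and X 18.8% (32 of 170, 13.2 to 25.5%). The intervals of all chromosomes overlap, and the difference between chromosomes was not tested. As a share of all replicate 1 peaks, IV had 9.12% and III 5.09%, with the other chromosomes between. Median widths hardly varied, from 1145 bp on IV to 1228 bp on II in replicate 1.

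Chromosomes V and X, the sparsest, differed little from each other in density, width and share. Their 38 and 32 peaks had median replicate 1 widths of 1194.5 and 1156 bp. X is the chromosome whose expression is lowered in hermaphrodite embryos by the dosage compensation complex, and V is the longest, with 20924186 bp up to its last listed peak end.

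The series-wide peak sat near the middle of the narrow region in both replicates. It lay wholly inside both replicate peaks in 284 of 296 cases (95.9%, 93 to 97.9%), inside replicate 1 only in 4, inside replicate 2 only in 6 and inside neither in 2. Its midpoint was a median of 43.8 bp from the replicate 1 midpoint (interquartile range 19.5 to 87.2 bp) and 49.8 bp from the replicate 2 midpoint (22.9 to 84.4 bp). It fell in the middle 20% of the replicate 1 peak in 247 of 296 (83.4%, 78.7 to 87.5%). The series-wide peak took a median of 50.3% of the replicate 1 width. The replicate lists were called with MACS and the series-wide list with MACS v2. The shortest nuclear peaks were 727 bp in replicate 1, 778 bp in replicate 2 and 146 bp in the series-wide list. The part this has in the difference of widths was not tested.

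Relative to the replicate 1 midpoint the 2 sides were nearly even, while relative to the replicate 2 midpoint the series-wide midpoint lay a little to the left. It was left of the replicate 1 midpoint in 159 peaks, right of it in 135 and on it in 2, and the median signed distance was -5.5 bp (interval of the median -16.5 to 6 bp). From the replicate 2 midpoint the median signed distance was -23 bp (-36 to -12 bp). The replicate 1 peak extended a median of 294 bp beyond the series-wide peak on the left and 308 bp on the right. The replicate 2 peak extended 316.5 bp on the left and 363 bp on the right, so its right flank was the longest of the 4 flanks. Left and right here are the direction of the coordinates, not of transcription.

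**Figure D2:**
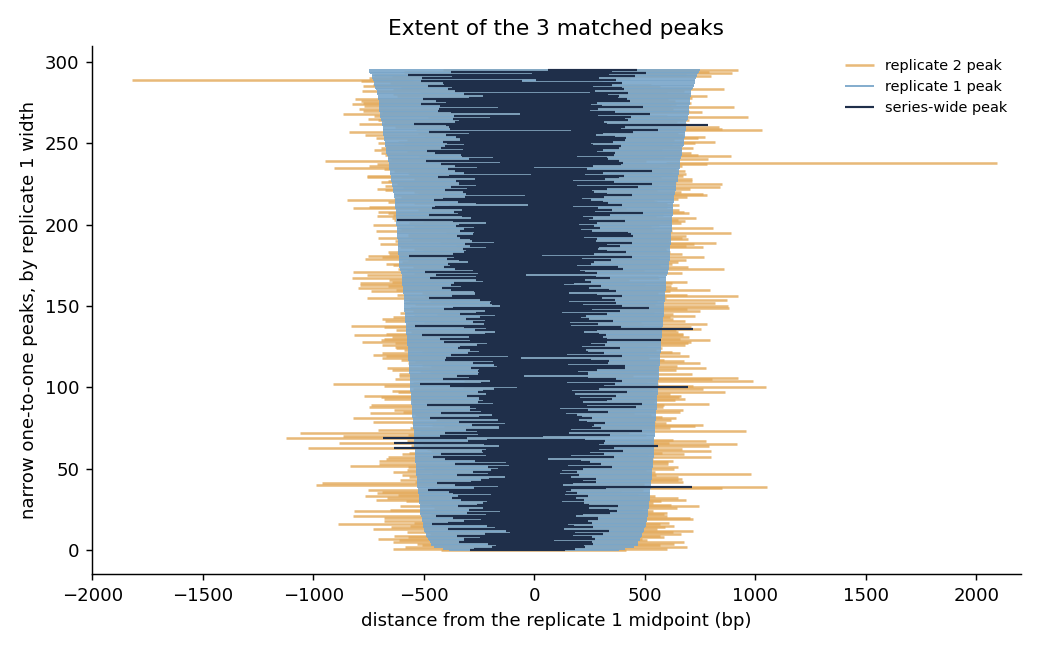
Each row is 1 of the 296 narrow one-to-one peaks, sorted by replicate 1 width, with its replicate 2 peak (drawn first), replicate 1 peak and series-wide peak placed by distance in bp from the replicate 1 midpoint. The series-wide peaks, with a median width of 600 bp, form a central band, and 2 replicate 2 peaks reach far to one side.

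Among other peaks with 1 partner in each list the series-wide peak was less often inside both replicate peaks. It was about as often inside the replicate 2 peak. It lay inside both replicate peaks in 284 of the 296 narrow one-to-one peaks (95.9%), against 339 of the 448 narrow replicate 1 peaks that failed the rule only because the replicate 2 peak was wider than 1500 bp (75.7%, 71.4 to 79.6%). Among the 681 replicate 1 peaks wider than 1500 bp with 1 partner in each list it did so in 544 (79.9%). Most of the exceptions were inside the replicate 2 peak alone, with 102 of the 448 and 118 of the 681. Containment in the replicate 2 peak was 98%, 98.4% and 97.2% in the 296, the 448 and the 681. The series-wide peak also took less of the replicate 1 width in the narrow one-to-one peaks, a median of 50.3%. The median was 59.2% in other narrow peaks with 1 series-wide partner (n = 599) and 79% in the 681. The part this has in the contrast was not tested. The series-wide midpoint was within 50 bp of the replicate 1 midpoint in 166 of 296 narrow one-to-one peaks (56.1%), against 149 of the 448 (33.3%) and 200 of the 681 (29.4%). A distance in bp can be larger in a wider peak, so the last comparison is partly one of width. As a share of peaks with the midpoint in the middle 20%, the values were 83.4%, 65% and 75.8%.

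A few narrow one-to-one peaks had their series-wide peak off centre. The 3 with the largest distance from the replicate 1 midpoint were on chromosome IV from 13287162 to 13288250 (-494.5 bp), on IV from 13089987 to 13091357 (364 bp) and on II from 712131 to 713552 (338.5 bp). On IV at 13287162 the series-wide peak ran from 13287020 to 13287403 and so began 142 bp outside the replicate 1 peak, while it lay inside the replicate 2 peak (13286585 to 13287822). On II the series-wide peak was only 173 bp wide. In all, 15 of 296 midpoints (5.07%) were more than 200 bp off.

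Each edge taken alone lay within 100 bp between the 2 replicate peaks in most of the set, and both edges together in a minority. The median absolute difference was 81.5 bp at the left edge (interquartile range 37 to 147.8 bp) and 82.5 bp at the right edge (35.8 to 147.5 bp). Left edges were within 100 bp in 181 of 296 (61.1%) and right edges in 177 (59.8%). Both were within 100 bp in 108 (36.5%) and within 200 bp in 214 (72.3%). The shared bases made up a median of 0.862 of the bases in either peak (Jaccard index, interquartile range 0.792 to 0.912), and 215 peaks (72.6%) reached 0.8.

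Replicate 2 was the wider of the pair more often, and the difference was spread over both edges. It was wider in 213 of 296 (72%), by a median of 83.5 bp over all 296 (interval of the median 62 to 104 bp). Among the 681 wider peaks with 1 partner in each list it was wider in 524 (76.9%). The width limit bears on these values for the 296. It left out 448 otherwise qualifying peaks too wide in replicate 2 only and 45 too wide in replicate 1 only. The replicate 2 left edge lay farther out in 177 peaks (59.8%, 54 to 65.4%) and its right edge in 192 (64.9%, 59.1 to 70.3%). Over all 296, edges that moved inward included, the median signed difference was -31 bp on the left and 50.5 bp on the right. The replicate 2 peak contained the replicate 1 peak in 107 cases and was contained in it in 34, and in the rest both edges moved the same way, to the left in 70 and to the right in 85. Spearman's rho between the left and right edge differences was 0.29 over the 296 peaks.

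**Figure D3:**
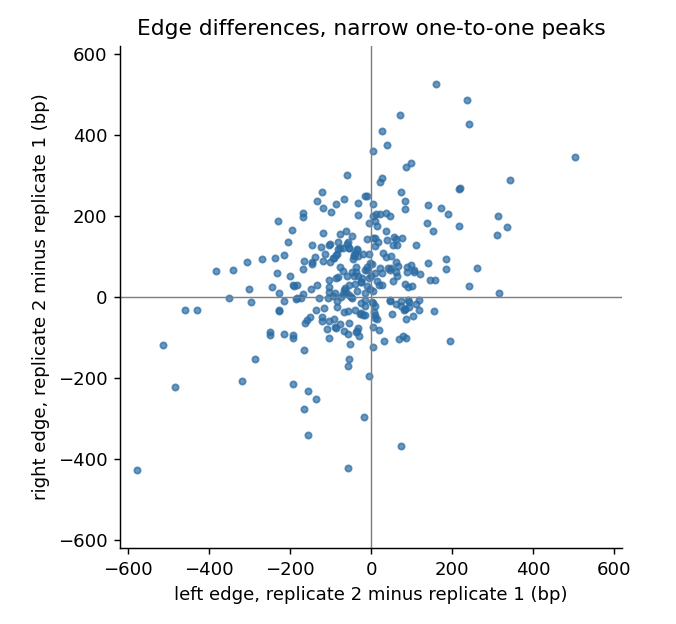
Left and right edge differences, replicate 2 minus replicate 1, in bp, 1 point per narrow one-to-one peak; 294 of 296 are within the plotted range of 600 bp. The upper left part, where replicate 2 extends beyond replicate 1 on both sides, holds 107 peaks, and the lower right part, where it is shorter on both sides, holds 34.

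Edges differed more among wider peaks. The median absolute differences of 81.5 bp at the left edge and 82.5 bp at the right edge of the 296 stood against 222 and 239 bp in the 681 wider peaks with 1 partner in each list, and the median Jaccard index of 0.862 against 0.754. Both edges were within 200 bp in 214 of the 296 (72.3%), against 151 of the 681 (22.2%). The rule caps both widths of the narrow set and none of the wider set, so the size of this contrast is in part built in. By chromosome, the median Jaccard index of the narrow one-to-one peaks ran from 0.84 on III to 0.888 on II, and the median left edge difference from 59 bp on V to 99 bp on I.

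The best matched peaks had both edges close together in the 2 libraries. The highest Jaccard index of the set, 0.990, belonged to a chromosome V peak at 8247094 to 8248441 in replicate 1, whose replicate 2 partner lay at 8247096 to 8248429. Its edges differed by 2 bp on the left and 12 bp on the right, and the midpoint of its series-wide peak (8247366 to 8248159) was exactly the replicate 2 midpoint. The next of V were from 8348680 to 8349944 (0.983) and from 20347318 to 20348553 (0.982). These 3 stood among neighbours at different distances, with 17592, 5715 and 31949 bp to the nearest other peak of any list.

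On X the best matched peaks lay at 16284182 to 16285293 (Jaccard 0.984), 12307569 to 12308946 (0.961) and 15663190 to 15664308 (0.954). On I they lay at 5256198 to 5257581 (0.982), 1508278 to 1509423 (0.968) and 13662835 to 13664122 (0.963). Every chromosome thus had at least 3 peaks above 0.95. On II they were from 13941935 to 13943038 (0.972), from 3591197 to 3592445 (0.971) and from 14225371 to 14226680 (0.963). On III they were from 10684264 to 10685304 (0.980), from 6984354 to 6985826 (0.958) and from 4748875 to 4750114 (0.956). On IV they were from 7252733 to 7254046 (0.972), from 14239641 to 14240980 (0.956) and from 13205357 to 13206453 (0.955). As these were ranked by the index itself, the values describe the upper end of the range only.

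At the other end, 3 of the 296 shared under 0.5 of their bases, and 2 of them met the rule through a short overlap of neighbouring peaks. On X, replicate 1 ran from 15513762 to 15515079 and replicate 2 from 15515015 to 15516514, which is an overlap of 65 bp (Jaccard 0.024) and a midpoint shift of 1344 bp. On II, replicate 1 ran from 155150 to 156609 and replicate 2 from 154060 to 155332, with 183 bp shared (0.072). In both, the series-wide peak of the replicate 1 region (15514264 to 15514821 and 155887 to 156249) did not touch the replicate 2 partner. In these 2 places the rule joined neighbouring intervals with little in common. The third was the peak on IV at 13287162 described above, with a midpoint shift of -502.5 bp and 661 bp shared (0.397).

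In the replicate 1 list, narrow one-to-one peaks lay farther from their neighbours than other peaks did, and in replicate 2 they hardly differed in this from wider peaks. The median gap to the nearest other replicate 1 peak was 3263.5 bp (interval of the median 2610 to 4268 bp, n = 296), against 1339 bp in the 987 other narrow replicate 1 peaks (1203 to 1624 bp), 2010 bp in the 681 wider peaks with 1 partner in each list (1675 to 2528 bp) and 1380 bp over all 4343. Without the conditions on replicate 2, narrow replicate 1 peaks with 1 series-wide peak had a median gap of 2108 bp (n = 895). A neighbour within 1000 bp was present for 72 of 296 (24.3%, against 43.5% of the other narrow peaks and 36.4% of the wider ones). On both sides the gap was over 10000 bp for 85 of 296 (28.7%), against 158 of 987 (16%) and 142 of 681 (20.9%). The rule bears on this indirectly: it leaves out narrow peaks that shared a wider replicate 2 peak with a neighbouring replicate 1 peak. The part this has in the difference was not tested.

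**Figure D4:**
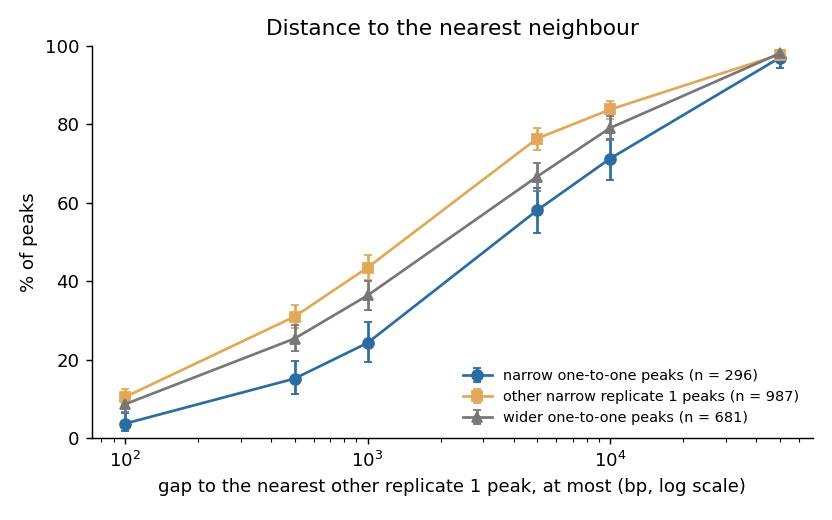
Percentage of peaks whose nearest other replicate 1 peak lies within a given gap in bp (log scale), with exact 95% binomial intervals, for narrow one-to-one peaks, other narrow replicate 1 peaks and wider peaks with 1 partner in each list. Up to 10000 bp the narrow one-to-one peaks lie lowest, with 24.3% at 1000 bp, and at 50000 bp the 3 sets lie between 97% and 98.1%.

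The median gap was larger than that of the other narrow peaks on each of the 6 chromosomes, by very different amounts. These medians rest on 32 (X) to 68 (I) narrow one-to-one peaks, no intervals were computed for them, and differences between chromosomes were not tested. On V the median gap was 8500 bp, against 1225 bp for other narrow peaks, and on X it was 9150 bp, against 1563.5 bp. On IV it was 4696 bp, against 2147 bp, on III 2319 bp, against 1220.5 bp, and on I 2042.5 bp, against 1099 bp. On II the values were close, 1641 bp against 1352.5 bp. Against the wider peaks with 1 partner in each list the order on II was the other way, with 1641 bp against 1938 bp, and on I the values were 2042.5 and 1859.5 bp.

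In the other 2 lists, which hold more peaks, the neighbours were nearer. The nearest other replicate 2 peak was a median of 1860 bp from the replicate 2 partner (interval of the median 1536 to 2359 bp), against 1225 bp for other narrow peaks with 1 replicate 2 partner (1052 to 1426 bp, n = 748) and 1769 bp for the 681 wider peaks (1509 to 2159 bp). In replicate 2 the intervals of the narrow one-to-one and the wider peaks thus overlapped almost wholly. The nearest other series-wide peak was 1863.5 bp from the series-wide partner (1546 to 2142 bp), against 816 bp for other narrow peaks with 1 series-wide partner (n = 599) and 1111 bp for the wider peaks (999 to 1229 bp). The series-wide partners had a median width of 600 bp, against 330 bp for these next series-wide peaks. It lay under peaks of both replicates in 114 of 296 cases (38.5%), under replicate 2 alone in 75, under replicate 1 alone in 17 and under neither in 90 (30.4%). Measured from the outer bounds of all 3 partner peaks, the nearest other peak of any list was a median of 1019.5 bp away, and 150 of 296 (50.7%) had none within 1000 bp.

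The neighbours themselves were close to those of other peaks in median width, and less often wider than 1500 bp. The nearest replicate 1 neighbour of a narrow one-to-one peak had a median width of 1925.5 bp (interval of the median 1733 to 2219 bp), against 2114 bp for other narrow peaks and 2169 bp for all. It was wider than 1500 bp for 188 of 296 (63.5%, 57.7 to 69%), against 68.6% of the other narrow peaks and 70.5% of all. It was wider than 10 kb for 10 of 296 (3.38%), against 3.04% of the other narrow peaks. The neighbour was itself a narrow one-to-one peak in 37 of 296 (12.5%, 8.96 to 16.8%), against 57 of 987 for other narrow peaks (5.78%, 4.4 to 7.42%). Members that are each other's nearest neighbour count 2 times in the first of these numbers.

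Fully isolated peaks made up a similar share on chromosomes IV, V and X and a smaller one on I, II and III. A distance of more than 10000 bp to every other peak of the 3 lists was found for 29 of 296, of which 12 were on IV (17.9% of its members, interval 9.61 to 29.2%), 6 on V (15.8%, 6.02 to 31.3%) and 5 on X (15.6%, 5.28 to 32.8%). Chromosomes I, II and III had 2 each (2.94%, 4.08% and 4.76%, with upper bounds of 10.2%, 14% and 16.2%). Those bounds reach above the lower bounds on IV, V and X, and the difference was not tested. All replicate 1 peaks were also sparser on IV, V and X (42, 29.1 and 28.2 per Mb) than on I, II and III (61.4, 49 and 59.9). The share of peaks isolated in all lists was not counted for other sets of peaks, so no comparison with them is given. The farthest stood on V from 16224921 to 16226368, 126181 bp from any other peak, with a replicate 2 peak from 16224917 to 16226174 and a series-wide peak from 16225236 to 16225997. The most isolated on III ran from 9291067 to 9292035 (38686 bp), on I from 12324163 to 12325344 (35206 bp), on X from 8703258 to 8704081 (27776 bp), on IV from 623658 to 624723 (27725 bp) and on II from 7171293 to 7172541 (14544 bp). That each of these 6 places held 1 short peak in each replicate list and 1 series-wide peak follows from the rule. The distance to other peaks follows from the ranking.

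Some narrow one-to-one peaks came as close pairs. Of the 290 gaps between successive members of a chromosome, 12 were under 5 kb and 6 under 1 kb, while the median was 192842.5 bp. The closest pair was on chromosome I, from 11066793 to 11068015 and from 11068155 to 11069235, 139 bp apart in replicate 1 and 192 bp apart in replicate 2. Both libraries held these as 2 peaks. A single replicate 2 peak covering both would exceed 1500 bp, so the rule would have left the pair out. On IV a pair 298 bp apart ran from 2921779 to 2923060 and from 2923359 to 2924714, and on II a pair 495 bp apart ran from 3589328 to 3590701 and from 3591197 to 3592445. The closest pairs of V (14091986 to 14093343 and 14094163 to 14095266), III (11565515 to 11566712 and 11567636 to 11568785) and X (17188589 to 17189712 and 17192736 to 17193891) were 819, 923 and 3023 bp apart.

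Along the chromosomes, narrow one-to-one peaks were less frequent in the central 50% and more frequent in the right-hand 25%. Of the 296, 123 (41.6%, 35.9 to 47.4%) lay in the central 50% of their chromosome, 71 (24%) in the left 25% and 102 (34.5%, 29.1 to 40.2%) in the right 25%. Of the other narrow replicate 1 peaks, 47.3% were central (44.2 to 50.5%) and 25.2% in the right 25% (22.5 to 28.1%). The central intervals of the narrow one-to-one and the other narrow peaks overlap, while those of the right 25% do not. These intervals cover counting error only, and neither difference was tested. The share in the right 25% was not recomputed under other forms of the rule. Of the 681 wider peaks 55.4% were central and 24.1% on the right. Over all 4343 replicate 1 peaks the shares were 49.4% and 25.4%. The central share depended on the rule: it was 48.8% over narrow replicate 1 peaks with 1 series-wide peak when replicate 2 was left out, and 52.9% over such replicate 2 peaks when replicate 1 was left out.

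**Figure D5:**
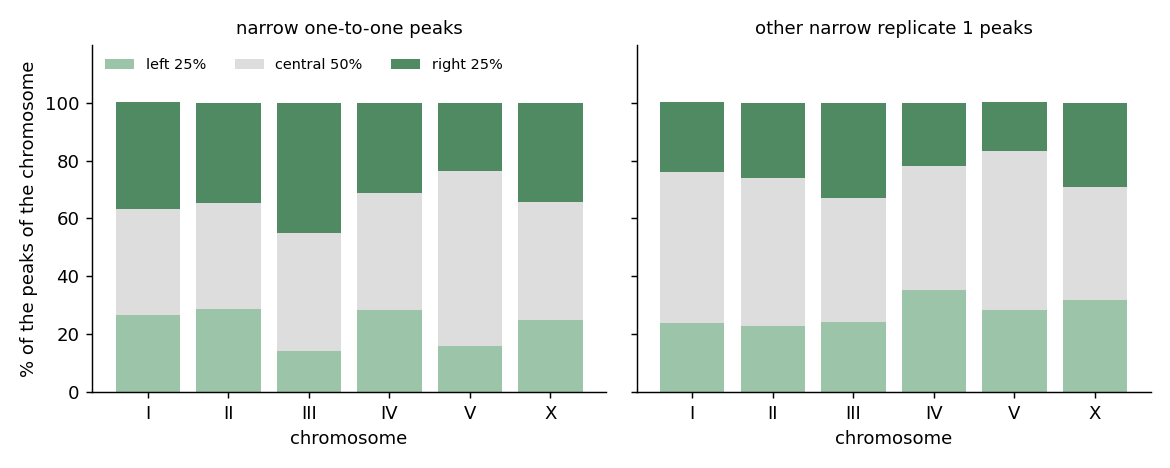
Share of narrow one-to-one peaks (left) and of other narrow replicate 1 peaks (right) of each chromosome in its left 25%, central 50% and right 25%, in percent. The right 25% holds a larger share of the narrow one-to-one peaks on each of the 6 chromosomes, from 23.7% on V to 45.2% on III.

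The share in the right 25% was higher than that of the other narrow peaks on each of the 6 chromosomes, with wide intervals on each. It was 45.2% on III (19 of 42, 29.8 to 61.3%), against 32.8%, and 36.8% on I (25 of 68, 25.4 to 49.3%), against 23.9%. It was 34.7% on II, against 25.9%, 34.4% on X, against 29%, 31.3% on IV, against 21.8%, and 23.7% on V, against 16.7%. The intervals overlap on each chromosome. The central share was lower than that of the other narrow peaks on I to IV and higher on V (60.5%, against 55.1%) and X (40.6%, against 39.1%), with the widest contrasts on I (36.8%, against 52.3%) and II (36.7%, against 51.3%).

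The narrow replicate 1 peaks that failed the rule differed in place according to the step at which they failed. Of the 296 one-to-one peaks 41.6% were central. Of the narrow peaks that overlapped a wider replicate 2 peak, 389 of 681 were central (57.1%), of those without a replicate 2 peak 55 of 227 (24.2%), of those with 2 or more series-wide peaks 17 of 66 (25.8%), and of those with 2 or more replicate 2 peaks 6 of 12 (50%). The value of 47.3% for the 987 other narrow peaks covers all of these sets together.

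The limit of 1500 bp cut through a continuous range of widths. Of the 296, 85 had a width over 1400 bp in at least 1 replicate, and 46 otherwise qualifying peaks had a replicate 2 width of 1501 to 1600 bp. Just inside the limit in replicate 1 were peaks on I from 7765230 to 7766729 (1500 bp) and from 12144399 to 12145891 (1493 bp). Just outside were those on X from 16686219 to 16687725 (1507 bp) and on I from 2308537 to 2310053 (1517 bp). In replicate 2, partners of 1500 bp on V (15070875 to 15072374) and X (15515015 to 15516514) were inside, and partners of 1501 bp on IV (10221496 to 10222996) and 1502 bp on IV (17058058 to 17059559) were outside. Without a limit, another 45 peaks were too wide in replicate 1 only, 448 in replicate 2 only and 636 in both.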

How the data were processed

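The authors called peaks for each ChIP sample with MACS and for the series with MACS v2, as every line of the deposited lists records. Alignment used BWA and ce10 per the submitters' processing notes, and per the file headers the build is WormBase WS220. The sources used here do not give versions, settings, control inputs or how the series-wide list joins the replicates. The lists are not independent of each other. The authors deposited the first and last base of each peak and a caller score; the score was not used.

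Overlaps and gaps were computed in Python 3.11.15 with numpy 2.4.6 and pandas 2.3.3. An overlap was at least 1 bp, and a gap is the number of bases between 2 peaks of a list. Chromosome length was the last listed peak end, and 13 mitochondrial peaks of the series-wide list were left out. Intervals came from scipy 1.17.1: exact binomial for shares, order-statistic for medians. Figures used matplotlib 3.10.9. The rule and measures were tested on simulated data. Regions were named by rank on each chromosome (highest Jaccard index, largest gap, closest pair, extreme shifts, nearest the width limit). The members and these rules were chosen with earlier results of these data known.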

Additional observations from a re-analysis of the deposited data

How the results depend on the processing

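In total 11 results were recomputed under 10 alternatives, which gave 89 values. Of these, 60 stayed within the main interval (for the number of peaks, within 1.5 times) and 29 moved beyond it; for the values that moved, the cause was not tested beyond what each setting's construction shows. A limit of 1000 bp left 1 peak, on chromosome I, and 0% of the 8 narrow replicate 1 peaks on X, so that the other values (100% inside both, 74.5 bp to the replicate 1 midpoint, 39 and 32 bp between edges, Jaccard 0.915, gaps of 23936 and 11658 bp in replicates 1 and 2, 0% central) describe that peak alone. A limit of 2000 bp gave 536 peaks, 60 bp to the replicate 1 midpoint, edge differences of 105 and 101 bp and a Jaccard index of 0.832. Merging series-wide peaks under 200 bp apart gave 91% inside both. Dropping the series-wide condition gave 53.5 bp to the midpoint and a series-wide gap of 1300 bp. Starting from replicate 2, 11.8% of the narrow replicate 2 peaks on X met the rule, over a larger number of narrow peaks (263). A central 40% held 29.4%. Leaving out a replicate removes its condition: the number was 895 without replicate 2 and 1237 without replicate 1. The central share was 48.8 to 52.9% and the series-wide gap 1033 to 1867 bp. Without replicate 2, 64.1% of the 170 narrow replicate 1 peaks on X met the remaining rule. Without replicate 1, 68.8% of the 263 narrow replicate 2 peaks on X did. Without replicate 2 the midpoint distance was 69 bp and the replicate 1 gap 2108 bp, and without replicate 1 the replicate 2 gap was 1686 bp. Asking for 50% mutual cover, or for a strict match among all 3 lists, moved none of the 11 results. The score threshold was not varied. No paired analysis was possible because the values come from no test and the input samples have no list here. Depth is unknown and sets no limit that can be stated.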

Other observations

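Among the 97 complete 1 Mb bins, 12 held no narrow one-to-one peak, 6 of them on chromosome V, 3 on II, 2 on X and 1 on IV. The highest number was 8 in a bin, on I from 13 to 14 Mb, on II from 11 to 12 Mb, on III from 11 to 12 Mb, and on IV from 0 to 1 Mb and from 13 to 14 Mb. The longest stretches between successive peaks of the set were 2300306 bp on II (7367861 to 9668166), 2109595 bp on X (10197974 to 12307568) and 1869978 bp on IV (9141155 to 11011132), each of which included part of the central 50% of its chromosome. On V the first of the set began at 2662631, while the bin from 0 to 1 Mb there held 20 narrow replicate 1 peaks, none of which met the rule. These bins and stretches were picked by rank after the values were seen.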
